A study of Homo sapiens with 12 samples.

Results

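The footprints of H9 cells, an established human embryonic stem cell line, were described here by the genes they came from. The members were the 4 libraries whose labels name H9 as the cell line, of 12 libraries in the series, and no contrast between them was made. Of the H9 libraries, 2 were labelled as carrying a control shRNA and 2 an shRNA against eIF2A, a protein that binds the initiator tRNA and is used in some forms of initiation. A short hairpin RNA (shRNA) is an expressed RNA that is processed into a small interfering RNA against its target. The labels give each shRNA in a set 1 and a set 2, without saying what a set shares. They name no immunoprecipitation and no stress agent for H9, and the sources used here do not say whether the H9 cells were a clone or a pool. The other 8 libraries came from HEK293T, an established human embryonic kidney line, treated with sodium arsenite, transfected with a control or an eIF2A siRNA, and immunoprecipitated for the cap-binding protein CBP80 or eIF4E. They serve here mainly to show whether a row of the count table can hold reads. Where an HEK293T value stands beside an H9 value it is a description, because cell line, arsenite, siRNA and immunoprecipitation differ together between them and cannot be told apart.

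In ribosome profiling, nuclease trims an mRNA down to the stretches covered by ribosomes, and these footprints are sequenced. The number of fragments on a coding sequence follows the number of ribosomes on it, and so depends on the mRNA level, on the rate of translation and on the length of the coding sequence. Pluripotent stem cells are known for an open chromatin, a short cell cycle, high glycolysis and a core of transcription factors that includes OCT4 (encoded by POU5F1), SOX2 and NANOG. Lineage genes are silent or poised in that state and are switched on as cells leave it. Values per library are given in a fixed order throughout, namely control shRNA of set 1, eIF2A shRNA of set 1, control shRNA of set 2 and eIF2A shRNA of set 2. The unit is counts per 1000000 coding reads (CPM). CPM was not divided by coding length, so it ranks genes by their share of footprints and not by ribosomes per length of mRNA.

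The sequence at the start of the mRNA is printed for genes that hold many footprints, because mRNAs of the translation apparatus carry a known element there. This 5′ terminal oligopyrimidine (TOP) element begins with C at the first base and goes on as a run of C and T, and mRNAs that carry it are controlled together by growth signals. A start was counted as TOP-like when the annotated first base was C and at least the next 4 bases were C or T, read on the gene's own strand only. The sequences below are the first 20 bases of the transcript in RefSeq's table of GRCh38.p14, 5′ to 3′, with the pyrimidine run in capitals. The first 4 belong to an elongation factor and to ribosomal proteins, and the last 4, shown as examples without the element, to genes of other function among the most occupied genes or the stem cell markers. Some other genes of such function have it, as counted further on. A gene with several starts was counted when any of them matched.
EEF2, chr19:3985444-3985463, minus strand: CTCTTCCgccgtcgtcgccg
RACK1, chr5:181243887-181243906, minus strand: CTCTCTTTCactgcaaggcg
RPS3, chr11:75399518-75399537, plus strand: CCTTTCCTTTCagcggagcg
RPLP2, chr11:809967-809986, plus strand: CCTTTTCCTCCCTgtcgcca
NCL, chr2:231464465-231464484, minus strand: agtctcgagctctcgctggc
ENO1, chr1:8878667-8878686, minus strand: agtatctgtgggtacccgga
L1TD1, chr1:62194849-62194868, plus strand: agtccttagttacaaggctc
SOX2, chr3:181711925-181711944, plus strand: gatggttgtctattaacttg

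The 4 libraries held 1577144, 1878700, 1511136 and 937990 coding reads, 5904970 in all, against 4331459 to 5775177 in a HEK293T library. A gene with 0 reads in a library could still have been present at up to 3 counts, which stand for 1.9, 1.6, 1.99 and 3.2 CPM, and over the 4 libraries summed for 0.508 CPM. Between 96.2 and 96.5% of all counts in the files lay in rows that name no gene, nearly all of them alignments of reads with more than 1 place in the genome, and these entered no share. The libraries of a set differed by little more than sampling noise, with a chi-square per degree of freedom of 1.04 in set 1 (p = 0.00209) and 1.07 in set 2 (p = 5.88e-07). Between sets the same measure was 2.67 to 3.31. The SD over 4 libraries given below therefore mostly describes the distance between the sets, and nothing in the labels says that the libraries came from separate cultures. Of 8671 genes with a mean of at least 10 CPM, 2182 (25.2%) were higher in both libraries of set 2 than in both of set 1 and 2606 (30.1%) lower, so that 55.2% had sets that did not overlap. A gap between sets was thus common, and those given below are descriptions.

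EIF2A, the gene named by the shRNA, had 163, 207, 92 and 64 reads. Its level was 103 CPM (95% exact Poisson interval 88.1 to 120.5), 110.2 CPM (95.7 to 126), 60.9 CPM (49.1 to 74.7) and 68.2 CPM (52.5 to 87.1). In both sets the library labelled eIF2A shRNA was at or slightly above its control, with overlapping intervals, and both libraries of set 2 were below both of set 1. Footprints on EIF2A were thus not lower under the eIF2A shRNA label in either set, and control and eIF2A shRNA stand throughout for the libraries titled so. The deposited files carry sample codes of their own, in which a letter is shared by both libraries of a set and a number tells them apart. The sources used here do not say whether that letter marks a set or an shRNA. The titles were followed, and whether the gap between sets is one between shRNAs cannot be told apart with these labels. These intervals cover counting error only, because the fragments carried no molecular identifiers.

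Of the 4 markers of the stem cell label, 3 had many reads in each library and POU5F1 had none. L1TD1, an RNA-binding protein derived from a LINE-1 element and typical of pluripotent cells, was at 1323, 1285, 1277 and 1238 CPM. LIN28A, which blocks maturation of the let-7 microRNAs, was at 503, 518, 379 and 378 CPM. SOX2 was at 245, 256, 292 and 265 CPM. Across the 8 HEK293T libraries L1TD1 held 1 read, LIN28A held 0 and SOX2 had a median of 15.6 CPM. The stem cell label was thus met by 3 of its 4 markers.

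POU5F1 (NM_001285986) had 0 reads in all 12 libraries. RefSeq lists 6 pseudogenes named after it, and the gene lies in a stretch of chromosome 6 in which nearly every gene had no read, described further on. Its 0 was found whatever the cell line and was not read as a level of OCT4.

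Footprints were spread over many genes. ACTB, cytoplasmic beta-actin and the most occupied gene, took 0.679, 0.709, 0.673 and 0.659% of coding reads. The 10 most occupied genes took 3.73, 3.76, 3.98 and 3.98% (mean 3.86% ± 0.139, SD, n = 4), and the exact binomial interval (95%) was widest in the smallest library, from 3.94 to 4.02%. The 100 most occupied genes took 16.4, 16.4, 17 and 17% (16.7% ± 0.367), and the 1000 most occupied took 54.3 to 55%.

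It took 817, 815, 792 and 789 genes to reach 50% of the coding reads, and 4933, 4947, 4830 and 4811 to reach 90%. Set 2 was slightly more concentrated than set 1 by each of these measures except the share of ACTB. Of 19305 accessions, 12413 had a mean of at least 1 CPM, 8671 at least 10, 2303 at least 100 and 90 at least 1000.

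**Figure D1:**
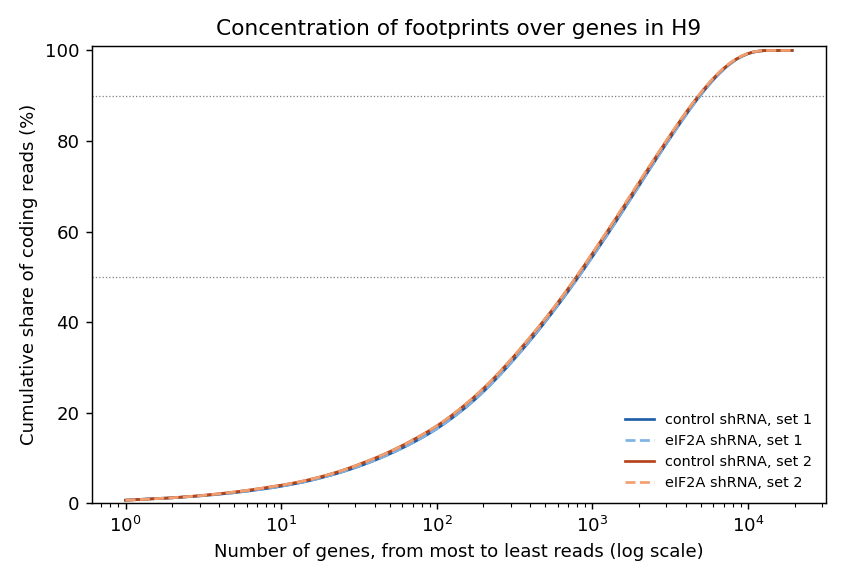
Cumulative share of coding reads in percent (vertical axis) against the number of genes taken from the most to the least occupied (horizontal log axis), 1 line per H9 library. The 4 curves lie on each other and cross the dotted line at 50% between 789 and 817 genes and the line at 90% between 4811 and 4947 genes.

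The 20 most occupied genes came from the cytoskeleton, translation, protein folding, glycolysis, RNA processing and chromatin, with some lipid and transport genes. ACTB stood at 6793, 7086, 6728 and 6585 CPM. EEF2, which moves the ribosome along the mRNA by a codon and has the TOP-like start shown above, stood at 5210, 5194, 5356 and 5471 CPM. HSP90AB1, the constitutive HSP90 of the cytosol, stood at 4208, 4178, 4652 and 4660 CPM. These 3 genes kept their order in each library.

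CALR, a calcium-binding chaperone of the endoplasmic reticulum, stood at 3304, 3261, 4280 and 4262 CPM, so set 2 was above set 1 with no overlap. NCL, nucleolin of the nucleolus, stood at 3762, 3622, 3790 and 3770 CPM. The neighbours CALR and NCL changed places between the sets. ENO1, the enolase of glycolysis, stood at 3387, 3489, 3211 and 3316 CPM.

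ACSL6, an enzyme that activates long-chain fatty acids, was seventh at 2640, 2684, 3554 and 3612 CPM. Its median in HEK293T was 6.38 CPM, while every other gene among the 10 most occupied of H9 had at least 1417 CPM in every HEK293T library. The gap between the sets of H9 was larger for ACSL6 and CALR than for the other genes of the first 10. The remaining genes of the first 10 were ACTG1, the other cytoplasmic actin, with a mean of 2953 CPM, the lactate dehydrogenase subunit LDHB with 2585 CPM, and the constitutive HSP70 chaperone HSPA8 with 2558 CPM.

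Ranks 11 to 20 lay between 2088 and 2513 CPM on average, and many neighbours there differed by less than their spread. HNRNPA2B1 (2513 ± 44.9 CPM, SD, n = 4) and HNRNPU (2367 ± 46.8) bind nascent RNA, and RACK1 (2435 ± 106) is a scaffold protein of the small ribosomal subunit. GAPDH (2328 ± 74.7) belongs to glycolysis and ATP5F1B (2103 ± 96.8) is the catalytic subunit of the mitochondrial ATP synthase. TRIM28 (2311 ± 43.5), a corepressor that silences retroelements, and DNMT3B (2163 ± 56.3), a de novo DNA methyltransferase abundant in pluripotent cells, were the only chromatin regulators among the 100 most occupied genes. FASN (2250 ± 33.4) is the fatty acid synthase and SLC16A1 (2088 ± 275) the monocarboxylate transporter MCT1. The accession NM_000034 (2124 ± 43.6) had no symbol in the table of names used. Within a set, none of the 20 genes differed by more than 1.07 times, and set 2 over set 1 ran from 0.925 to 1.35. Each library shared at least 18 of its own 20 most occupied genes with this list.

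Functional classes were made from gene symbols, each gene in 1 class at most. The 28 classes held 2993 genes and took 40.4 to 40.7% of coding reads in each library. Of the 100 most occupied genes, 69 fell in a class. Splicing factors with hnRNPs had 11 of them, cytosolic ribosomal proteins 10, histones 7 and chaperones of the cytosol and mitochondria 7.

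The sets did not overlap in 21 of the 24 classes with reads in all libraries. Splicing factors and hnRNPs took the most, 4.18, 4.18, 4.15 and 4.14% over 98 genes, with HNRNPA2B1 and HNRNPU in front. This order depended on the genes counted. Genes that have a named pseudogene were left out of the classes and of the total. Histones then took 4.6%, splicing factors 3.15% and ribosomal proteins 0.0703% of this smaller total on average. Nearly all ribosomal protein genes have a named pseudogene, so this empties that class. Chromatin regulators took 2.54, 2.52, 2.57 and 2.55%, led by TRIM28, DNMT3B and the nucleosome remodeller SMARCA5 (916 CPM). These classes were among those in which the libraries lay closest together. Nucleolar proteins took 1.66, 1.65, 1.64 and 1.64% over 73 genes. NCL alone, at 0.374% of all coding reads, was far ahead of the helicase DDX21 (647 CPM) and of NOLC1 (615 CPM) in that class.

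**Figure D2:**
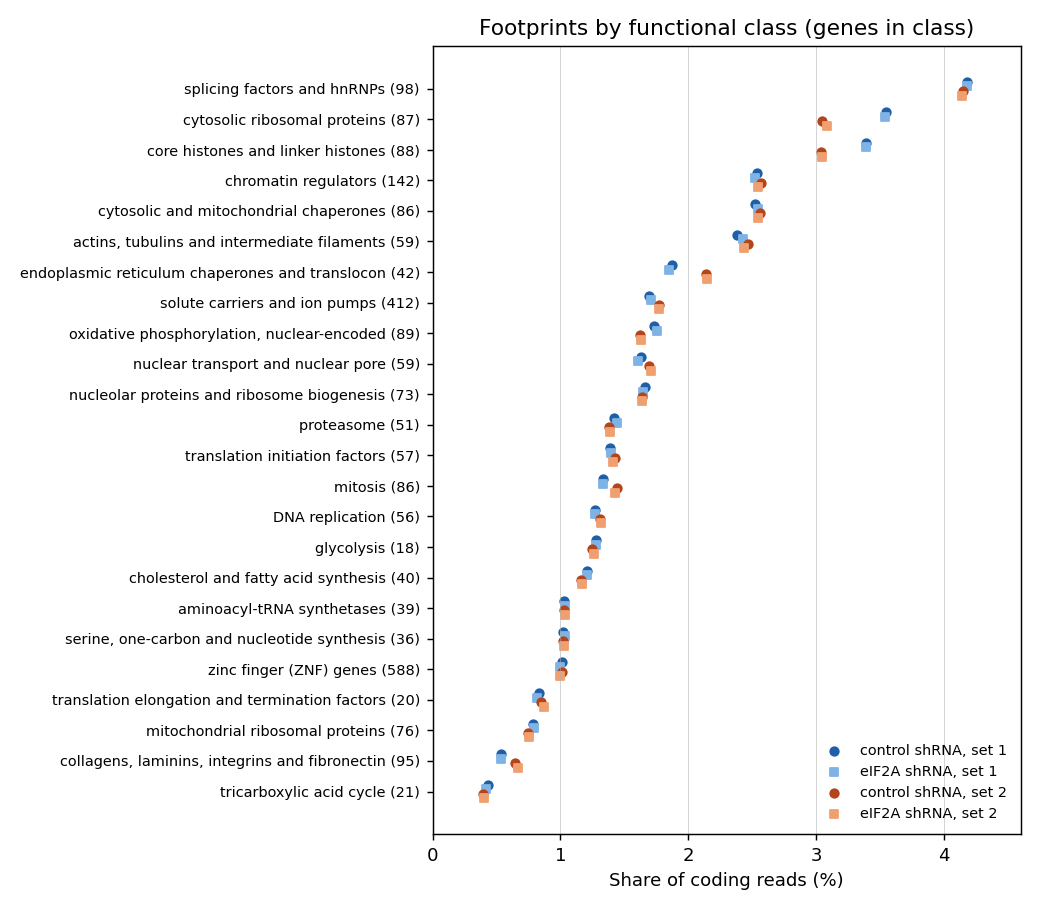
Share of coding reads in percent (horizontal axis) for the 24 functional classes with reads, the number of genes in brackets, 1 point per H9 library with colour for the set and shape for the shRNA label. Splicing factors lead at 4.14 to 4.18% with all genes counted. Histones lead, at 4.6% of a smaller total, without genes that have a named pseudogene (not drawn). The points of a set lie together, with ribosomal proteins and histones higher in set 1 and endoplasmic reticulum chaperones higher in set 2.

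The translation apparatus came from several classes. Cytosolic ribosomal proteins, counted with RACK1, took 3.55, 3.54, 3.05 and 3.09%, lower in set 2. After RACK1 the class was led by RPL8 (1616 CPM). Initiation factors took 1.39, 1.4, 1.43 and 1.41%, led by the scaffold EIF4G1 (1124 CPM), EIF3A (1095 CPM) and EIF3M (759 CPM). Elongation and termination factors, counted with TPT1, took 0.835, 0.819, 0.85 and 0.873%. Most of it was on EEF2, and the next genes were EIF5A (533 CPM) and TPT1 (422 CPM). Aminoacyl-tRNA synthetases, which charge tRNAs, took 1.03 to 1.04%, led by TARS1, GARS1 and AARS1. Mitochondrial ribosomal proteins took 0.745 to 0.79%, led by MRPS34, MRPL37 and MRPL3.

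TOP-like starts were found for 48 of the 69 ribosomal protein genes with a start in the table (69.6%), against 963 of 15089 genes of the files with a start there (6.38%). Initiation factors had them in 9 of 45 genes and elongation factors in 4 of 18. Among the 100 most occupied genes, 8 of 78 with a start had one (10.3%), and 2 of 70 (2.86%) once ribosomal proteins and elongation factors were left out. NCL, ENO1, L1TD1 and SOX2, printed above, begin with a purine, but HSP90AB1 has a TOP-like start with a run of 5 bases. In the pluripotency list described below, 4 of 30 genes with a start had one (13.3%). Genes with a TOP-like start took 9.46, 9.43, 9.03 and 9.07% of coding reads. The annotated first base need not be the base used in H9, and a match of letters says nothing about control of the mRNA.

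Ribosomal protein genes were counted very unevenly. The 10 most occupied took 38.5% of the class, 26 genes had at least 500 CPM, and 16 had under 10 CPM. Those under 10 CPM include the paralogues RPL3L, RPL10L, RPL26L1 and RPL39L, which have no named pseudogene and are counted below with the others. A ribosome holds most of its proteins in equal number. RPL21, with 137 pseudogenes named after it in RefSeq, had 3, 1, 0 and 0 reads. RPS26, with 59 pseudogenes, had 2, 0, 0 and 0 reads, and RPL39, with 40, had 0, 1, 1 and 0. RPS10 and RPS18 had none.

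Over the 87 genes, the median was 354 CPM for the 30 genes with 0 to 9 named pseudogenes, 353 CPM for the 31 genes with 10 to 29, and 78.3 CPM for the 26 genes with 30 or more. Spearman's correlation of CPM with the number of pseudogenes was -0.33 across these genes, as a description. Outside this class, the 16 genes with 30 or more named pseudogenes had a median of 72.5 CPM and reached 2328 CPM. GAPDH, with 65 pseudogenes, was the highest of them, and KRT8, with 52, was at 229 CPM. EEF1A1, the partner of EEF2 in elongation, was at 70.4, 74.5, 75.4 and 83.2 CPM with 50 named pseudogenes. HNRNPA1 was at 12.8 to 13.9 CPM with 75. The share given for ribosomal proteins is thus that of uniquely placed reads, and the part that reads with several alignments play in it was not tested.

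Histones took 3.39, 3.39, 3.04 and 3.05% over 88 genes, also lower in set 2. Replication-dependent histone mRNAs lack a poly(A) tail and are made in S phase. By type, H2A took a mean of 0.833%, H3 0.808%, linker H1 0.587%, H4 0.532% and H2B 0.46%. H1-4 was at 1985, 2052, 1979 and 1977 CPM and H3C2 at 1824, 1872, 1433 and 1460 CPM. H1-5 was at 1576, 1563, 1447 and 1425 CPM in H9 and had 4 reads over all HEK293T libraries. The histone share of HEK293T libraries was 2.69 to 3.41% with a median of 2.97%, a range that holds all 4 H9 values.

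DNA replication took 1.27, 1.27, 1.31 and 1.32%, and each of its 56 genes had reads in every library. MCM4 (1161 CPM) and MCM3 (1057 CPM) of the replicative helicase and the topoisomerase TOP2A (853 CPM) led it. Mitosis genes took 1.33, 1.33, 1.44 and 1.43%, led by cyclin B1 (CCNB1, 818 CPM), CKAP5 (596 CPM) and NCAPD2 (506 CPM). Both classes were slightly higher in set 2.

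Protein folding and turnover were the next large block. Chaperones of the cytosol and mitochondria took 2.52, 2.55, 2.56 and 2.55%, with CCT3 (2004 CPM), a subunit of the chaperonin that folds actin and tubulin, after HSP90AB1 and HSPA8. Chaperones and translocon proteins of the endoplasmic reticulum took 1.87, 1.85, 2.14 and 2.15%, higher in set 2. HSP90B1 (1819 CPM) and CANX (1765 CPM) followed CALR there. All 42 genes of that class were seen in every library. The proteasome took 1.38 to 1.44%, led by PSMB4, PSMD1 and PSMD2. Actins, tubulins and intermediate filaments, counted with other cytoskeletal genes such as cofilin (CFL1, 1668 CPM), took 2.38, 2.43, 2.47 and 2.44%. The leading genes of this class were ACTB, ACTG1 and cofilin.

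Among metabolic classes, oxidative phosphorylation genes of the nucleus took 1.73, 1.76, 1.62 and 1.63% over 89 genes, led by ATP5F1B, ATP5F1A (1164 CPM) and NDUFA13 (648 CPM). Glycolysis took 1.28, 1.28, 1.25 and 1.26% over 18 genes, and ENO1, LDHB and GAPDH held most of it. The class named for the tricarboxylic acid cycle took 0.393 to 0.432%, led by MDH2, MDH1 and IDH1. MDH1 and IDH1 are cytosolic relatives of enzymes of the cycle, so this share is not that of the mitochondrial cycle alone. Cholesterol and fatty acid synthesis took 1.21, 1.21, 1.16 and 1.17%, with FASN, ACLY (1399 CPM) and FADS2 (981 CPM) in front. Serine, one-carbon and nucleotide synthesis took 1.02 to 1.04%, led by PHGDH, the first enzyme of serine synthesis (962 CPM), IMPDH2 and PAICS. Solute carriers and ion pumps took 1.69 to 1.77% over 412 genes, with SLC16A1 and SLC38A2 (810.1 CPM) among the most occupied.

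Nuclear transport genes took 1.61 to 1.71%, led by the importin KPNB1 (1618 CPM), RAN (1320 CPM) and the exportin CSE1L (1100 CPM). The 588 zinc finger genes took 1 to 1.01% together, with ZNF207 (407 CPM), ZFP42 (362 CPM) and ZNF462 (279 CPM) in front. Collagens, laminins, integrins and fibronectin, counted with SPARC, took 0.536, 0.533, 0.645 and 0.669%, higher in set 2. They were led by SPARC (713 CPM), LAMC1 (522 CPM) and ITGA6 (376 CPM).

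A second group of 9 classes was added after the genes outside all classes had been seen. The ubiquitin system took a mean of 2.18%, vesicle coats and traffic 1.78%, and RNA-binding proteins that act on mature mRNA 1.33%. L1TD1 (1281 CPM) and the oncofetal protein IGF2BP1 (1111 CPM) led the RNA-binding class. Redox enzymes took 0.95%, DNA repair genes 0.934%, RNA helicases 0.868%, growth factors with their receptors 0.802%, motor proteins 0.619% and cadherins with catenins 0.488%. The growth factor class was led by the heparan sulfate proteoglycan GPC4 (1242 CPM) and by the WNT antagonists SFRP1 (894 CPM) and SFRP2 (728 CPM).

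Of 46 genes of pluripotency or of the primed embryonic stem cell, 42 had reads in all 4 libraries, against 11977 of all 19305 accessions (62%). The list summed to 13221, 13309, 12712 and 12668 CPM. Its median gene was at 155 CPM, against 6.41 CPM for all accessions. DNMT3B was at 2240, 2165, 2138 and 2109 CPM. PODXL, the podocalyxin that carries the TRA-1 epitopes of stem cells, was at 1625, 1648, 1496 and 1402 CPM. The surface protein CD24 was at 779, 827, 710.1 and 755 CPM. All of these were high in each library and differed little between libraries.

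SFRP2 was at 838, 795, 617 and 661 CPM and DPPA4, a chromatin-associated factor, at 446, 478, 465 and 475 CPM. SFRP2 and LIN28A were lower in set 2 with no overlap, as were DNMT3B, PODXL, CD24 and L1TD1, while DPPA4 was even across libraries. Of all genes with a mean of at least 10 CPM, 30.1% were lower in set 2 in this way. Other surface markers of H9 were EPCAM (436 ± 35.5 CPM, SD, n = 4), THY1 (389 ± 12.7) and CD9 (189 ± 6.62). Transcription factors lay lower in share of reads. SALL4 had a mean of 370.4 CPM, ZFP42 362, ZIC2 276, SOX2 265, MYCN 128, PRDM14 115 and OTX2 78.6.

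NANOG, a homeodomain factor of the core network with 10 named pseudogenes, was at 27.9 CPM (20.3 to 37.5), 35.1 (27.2 to 44.7), 26.5 (18.9 to 36) and 21.3 (13 to 32.9). Its 4 intervals overlapped, and a difference between libraries was not tested. CRIPTO, the NODAL co-receptor also known as TDGF1, was at 31.1, 45.8, 43.7 and 52.2 CPM. LEFTY1, an inhibitor of NODAL, was at 22.8, 19.7, 31.1 and 33 CPM. NODAL itself had 2, 4, 6 and 0 reads and DPPA2 had 4, 0, 5 and 3.

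**Figure D3:**
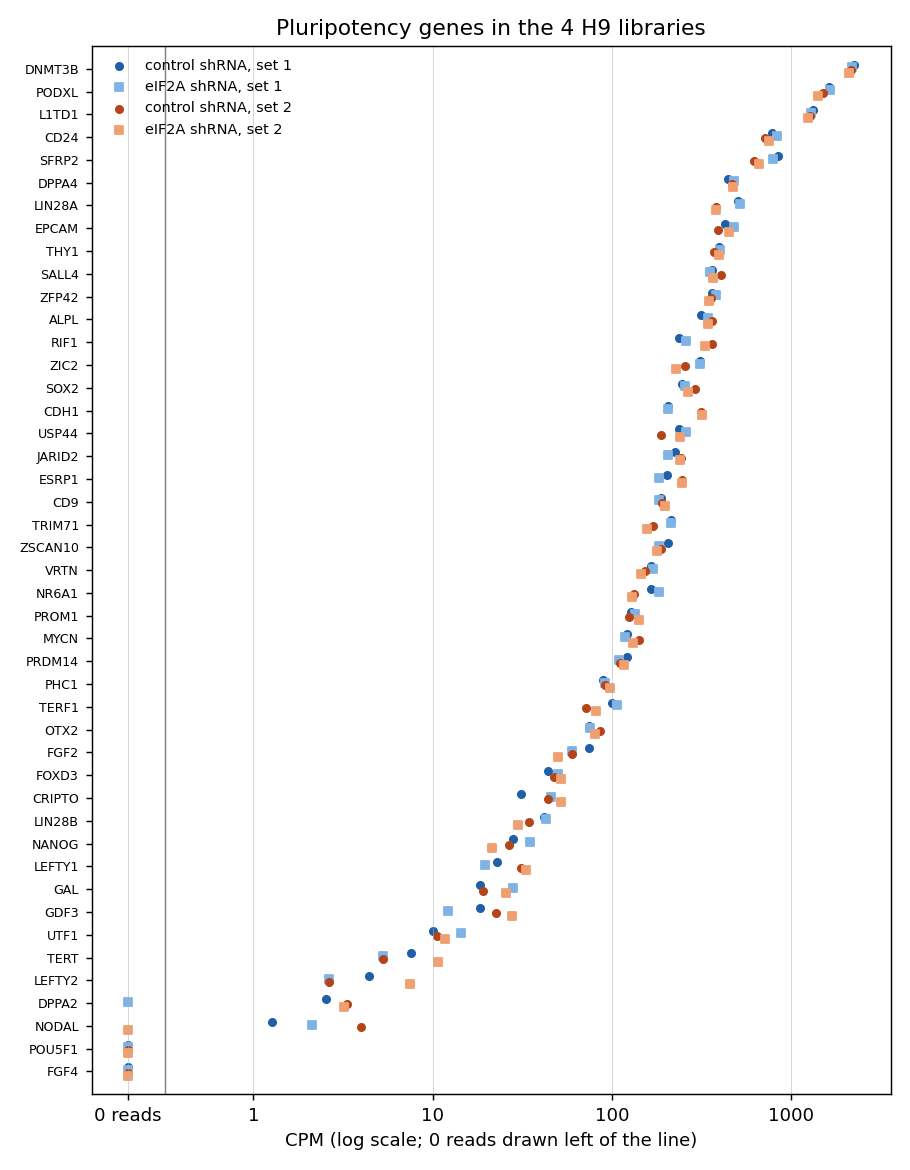
CPM on a log axis of 45 of the 46 pluripotency genes in the 4 H9 libraries, colour for the set and shape for the shRNA label, with libraries at 0 reads left of the grey line. DNMT3B, PODXL and L1TD1 lie above 1000 CPM in every library, and POU5F1 and FGF4 lie at 0 reads in every library.

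CDH1, the epithelial cadherin, was at 205, 204, 314 and 319 CPM, a gap between sets and none within. FGF2 was at 74.2, 60.1, 59.6 and 50.1 CPM, and FGF4 had 0 reads in all 12 libraries. Of 14 genes of the naive state, a condition of pluripotency closer to the early blastocyst, 6 were seen in every library. ZFP42, on both lists, and SUSD2 (13.9, 12.8, 25.1 and 26.7 CPM) were the only ones with more than 3 reads in each. KLF5, TFCP2L1, NLRP7 and DPPA5 had 1 to 7 reads a library, and KLF17, ARGFX, DNMT3L, TBX3 and FGF4 had none.

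The 8 lists of lineage genes held 100 genes, of which 28 were seen in every library, 19 with more than 3 reads in each, and 38 had no read. Of those 38, 31 had reads in HEK293T, so their rows can be counted. The lists summed to 1693, 1715, 2566 and 2600 CPM, with set 2 higher, and most of the sum came from a few genes. In these bulk libraries, fewer cells of a type and less RNA per cell cannot be told apart.

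The neuroectoderm list summed to 764, 749, 1322 and 1295 CPM. NES, an intermediate filament of neural progenitors that is also made by other dividing cells, was at 481, 445, 1065 and 1066 CPM, with no overlap of the sets. SOX3 was at 26.6, 28.2, 72.1 and 65 CPM, also higher in set 2. TUBB3 was at 162, 188, 111 and 97 CPM and MAP2 at 67.2, 57, 46.3 and 44.8 CPM, both lower in set 2, so the neural genes did not move as a group. FABP7 and DCX were at 14.5 and 6.96 CPM on average, and PAX6, NEUROG2, NEUROD1 and EMX2, which direct neural fates, were among those with no read.

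The fibroblast and feeder list was seen in 7 of 10 genes and summed to 585, 599.9, 845 and 877 CPM. TAGLN, an actin-binding protein, was at 262, 278, 369 and 382 CPM. COL1A2 was at 143, 149, 249 and 256 CPM, and COL1A1 at 119.8, 111, 161 and 178 CPM. These 3 genes were higher in set 2, as NES was. PDGFRB, at 11.4, 13.3, 25.1 and 22.4 CPM, was higher there as well. ACTA2 was at 24.7, 23.4, 21.8 and 22.4 CPM and S100A4 at 17.8, 18.1, 10.6 and 12.8 CPM, both lower in set 2, so the list did not move as a group. Of its other genes, the fibroblast proteoglycans LUM and DCN had 0 reads in all 4 libraries. Whether cells of another type were present was not tested.

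**Figure D4:**
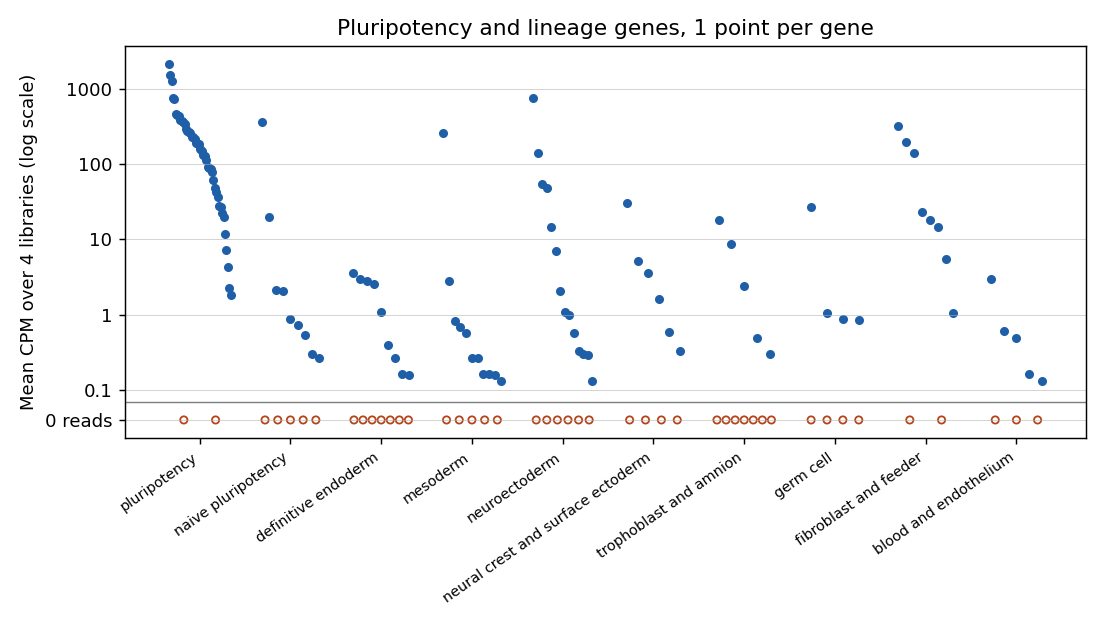
Mean CPM over the 4 H9 libraries on a log axis for each gene of the pluripotency list, the naive list and the 8 lineage lists, 1 point per gene, with open red points for genes with 0 reads in all 4 libraries. The median pluripotency gene is at 155 CPM, and in each lineage list but that of fibroblast genes the median gene is below 1 CPM.

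In the mesoderm list KDR, a receptor of VEGF also found on undifferentiated stem cells, was at 239, 234, 263 and 295 CPM and PDGFRA at 2.81 CPM on average. MESP2, TBX6, MIXL1, MEOX1 and RUNX1 had at most 2 reads a library. TBXT (brachyury), MESP1, HAND2, FOXF1 and TBX5 had none. In the endoderm list no gene had more than 3 reads in every library. AFP was at 3.57 CPM and CXCR4 at 2.6 CPM on average, CER1 had 1, 3, 9 and 3 reads and FOXA2 5, 15, 1 and 0. APOA1 had at most 3 reads a library. SOX17, GATA6, HNF4A, EOMES, TTR, ALB and GSC had none.

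In the neural crest and surface ectoderm list SOX9 was at 19, 24.5, 43 and 35.2 CPM, NGFR at 5.18 and SOX10 at 3.54 CPM on average. SNAI2, PAX3 and PAX7 had at most 4 reads a library, and TFAP2A, KRT5, KRT14 and TP63 had no read. In the trophoblast and amnion list KRT7 was at 17.8, 20.2, 16.5 and 18.1 CPM and IGFBP3 at 8.81 CPM on average. TFAP2C, GABRP and PGF had at most 5 reads a library, while CDX2, GATA2, GATA3, ELF5, CGA, VTCN1 and ISL1 had no read. Among germ cell genes KIT was at 24.7, 33, 21.8 and 28.8 CPM and DAZL at 1.05 CPM, PRDM1 and PIWIL2 had at most 4 reads a library, and NANOS3, DDX4, SYCP3 and MAEL had none. Among blood and endothelial genes CDH5 was at 3.03 CPM, SPI1, CD34, PTPRC and HBB had at most 3 reads a library, and PECAM1, HBG1 and HBE1 had no read.

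Genes without reads numbered 5898, 5702, 5965 and 6546 per library. At the depth of the smallest library the expected numbers were 6445, 6428, 6474 and 6546, so most of the difference went with depth. In all 4 libraries 4644 accessions (24.1%) had no read, 11977 had reads in each library and 2684 (13.9%) in some. Of the 4644, 2347 (50.5%) had reads in HEK293T and 2297 had none in any of the 12 libraries. A median of at least 1 CPM in HEK293T was reached by 303 of the 4644, and of at least 10 CPM by 52.

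The classes with the highest share of such genes serve the senses, skin and defence. Olfactory receptors had no read in 362 of 373 genes, keratin-associated proteins and hair keratins in 103 of 106, defensins and interferons in 64 of 65, and taste and vomeronasal receptors in 28 of 31. No gene of these classes was seen in every library. At the other end, the classes of DNA replication, elongation factors, endoplasmic reticulum chaperones and the tricarboxylic acid cycle had none without reads.

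Families of developmental regulators differed in how many members were seen, and these families were chosen after the genes without reads had been listed. HOX genes, which set position along the body axis, had no read in 32 of 39, and 31 of those had reads in HEK293T. The family summed to 7.25 CPM in H9, 5.76 of it on HOXD1, and to 447 to 592 CPM in HEK293T libraries. No read was found for 10 of 16 T-box genes, 10 of 19 POU, 5 of 8 PAX, 4 of 6 GATA and 4 of 6 DLX genes, against 24.1% of all accessions. SOX genes lacked reads in 2 of 19 and ZIC genes in 1 of 5, the latter near the share of all accessions. Several of these families are small. SOX genes summed to 929 CPM, with SOX4 (261 CPM) and SOX11 (124 CPM) after SOX2, and ZIC genes to 450.5 CPM, with ZIC5 (87.9 CPM) after ZIC2. FOX genes lacked reads in 18 of 50, and FOXO1 (100.1 CPM) and FOXH1 (69.8 CPM), a partner of NODAL signalling, were the most occupied.

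The genes without H9 reads and with the highest counts in HEK293T were EN2 (median 91.1 CPM there), PRAME (87.6 CPM), AMBN (85 CPM), NRN1 (71.4 CPM) and CDKN2A (68.5 CPM). CDKN2A encodes inhibitors of the cell cycle, and CDKN2C, its relative, was at 59 CPM in HEK293T. Their H9 count of 0 allows up to 0.508 CPM over the 4 libraries summed. TBX3, TFAP2A, HOXC4 and HOXD11 followed with 42.2 to 49.5 CPM.

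Other genes without reads lay next to each other. On chromosome 6, in a stretch that begins with GPX6 and contains the major histocompatibility complex, 149 of 163 neighbouring genes (91.4%) had no H9 read, and 139 of these had none in any of the 12 libraries. The stretch held 871 H9 reads, 205 of them on HLA-C and 171 on HLA-DQB1. The 40 genes beside it held 31432 reads, and 8 of them (20%) had none. POU5F1 lies inside, as do genes that dividing cells use, among them TUBB, RPS18, DDX39B, VARS1, CSNK2B, CLIC1, ABCF1 and FLOT1, each with 0 reads in all 12 libraries.

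**Figure D5:**
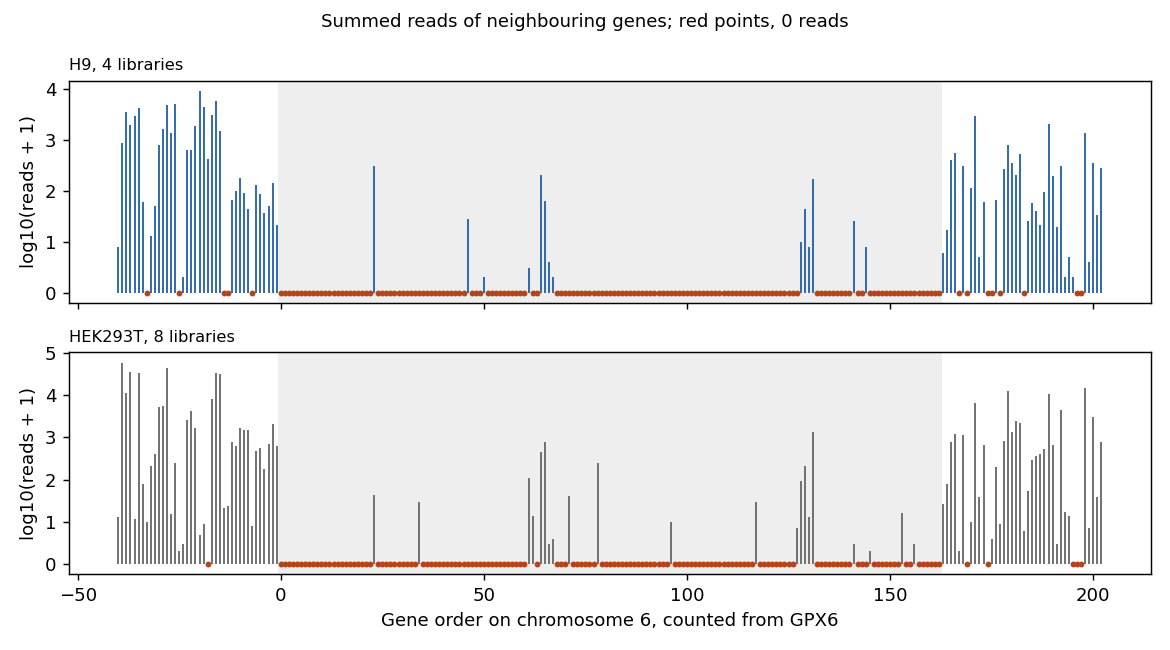
Summed reads, as log10(reads + 1), of neighbouring genes on chromosome 6 in gene order counted from GPX6, for the 4 H9 libraries and the 8 HEK293T libraries, with red points for genes at 0 reads and the stretch of 163 genes in grey. In H9, 149 of the 163 genes inside lie at 0, against 8 of the 40 beside it.

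At the end of the X chromosome, all 14 genes from PLCXD1 to ZBED1 had no read in any of the 12 libraries, SLC25A6, an ADP/ATP carrier of mitochondria, among them. Beside it, 9 of 20 genes had none. Both stretches are ones that a genome sequence file of build hg19 can hold more than once, as alternate haplotypes of the complex or as the region shared by the sex chromosomes. No source used here says whether the index held such copies, and this was not tested. YTHDC1, a reader of methylated RNA on chromosome 4, also had 0 reads in all 12 libraries. A count of 0 in H9 can be set beside a count in other libraries for 2347 of the 4644 accessions, and for the rest these files do not show that the row can hold reads.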

How the data were processed

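The labels' protocols give TRIzol extraction and a small RNA library kit of Illumina, and the submitters' processing notes list STAR 2.5.2b, cutadapt and build hg19. How reads were assigned to genes, with which annotation and strand, and how ribosomal RNA was removed is not given in these sources. What the authors deposited are raw counts of reads per coding sequence, 1 RefSeq accession a row. Rows that name no gene were left out of library sizes. Of 19305 accessions, 18888 were named through RefSeq's table of GRCh38.p14, and 417 (0.439 to 0.451% of reads) kept their accession. Start sequences come from RefSeq's promoter table of that assembly.

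CPM, shares, exact Poisson and binomial intervals (95%) and pairwise chi-square values (over genes whose reads in both libraries sum to at least 20) were computed in Python 3.11.15 with scipy 1.17.1, and TMM and RLE scaling in R 4.3.3 with edgeR 4.0.16 and DESeq2 1.42.0. The computations were tested on simulated data. No contrast was made, so no gene was tested, and the pairwise chi-square is the only test. The members and lists were chosen with earlier results of these data known. The text names the 20 most occupied genes, 3 leading genes of each class with reads in all libraries, and the 6 leading genes and those without reads of each list. The genes with most reads per coding kilobase were not named, since coding lengths were not used here. Some genes that this rule takes are not reported here. Other named genes were chosen after their values were seen. A gene was seen when it had at least 1 read in each library. Pseudogenes were counted by name, as a gene symbol followed by P and a number, so pseudogenes named otherwise were missed. Of 13 trophoblast genes, 12 were matched.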

Additional observations from a re-analysis of the deposited data

How the results depend on the processing

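No paired analysis was possible because the shRNA labels were not contrasted and the only test, the chi-square between pairs of libraries, takes no block. Leaving out each library in turn moved none of the 18 values checked by more than the SD over libraries, or 1.5 times for a count. For a mean over the 4 libraries this outcome was fixed in advance, since leaving out 1 cannot move it by more than the SD. The other library of the same set also stayed in each time. Of 44 other alternatives, 23 moved no value by more than these limits. Among them were TMM and RLE scaling of SOX2, LIN28A, L1TD1 and EIF2A and other rules for a gene seen or without reads. Genes without reads went from 4644 to 6333 when at most 3 reads in total counted as none. Lineage genes seen went from 28 to 19 when more than 3 reads in every library were needed. Both counts changed, though within the limit of 1.5 times. With reads outside coding sequences and ambiguous reads in the total, the 10 and 100 most occupied genes took 2.69 and 11.6%, splicing factors 2.9%, ribosomal proteins 2.31%, histones 2.25%, chromatin regulators 1.77%, chaperones 1.77% and actins with tubulins 1.69%. Without ACTB, the 10 and 100 most occupied took 3.46 and 16.2%, splicing factors 4.19%, chaperones 2.56% and actins with tubulins 1.76%. Leaving out genes with a named pseudogene, chosen after seeing the data, gave 4.3 and 18.7%, splicing factors 3.15%, ribosomal proteins 0.0703%, histones 4.6%, chromatin regulators 2.69%, chaperones 1.74% and actins with tubulins 1.27%. These moves follow from the larger or smaller total or from the genes left out. The order of the 3 leading classes thus rests on the choice of genes. Reads per coding kilobase and leaving out genes with an identical protein were not run, since a protein table was not used here. Depth limits genes under 1.6 to 3.2 CPM in a single library.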

Other observations

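Several genes with a high share of H9 footprints had few in HEK293T. Beside ACSL6, this held for APOE, a lipid carrier, at 1871, 1854, 2224 and 2241 CPM in H9 and a median of 20.9 CPM in HEK293T, and for GPC4, at 1098, 1110, 1397 and 1364 CPM and a median of 36.8 CPM. Both were higher in set 2 of H9 with no overlap. Some single histone genes were also high in H9 and low in HEK293T, while the share of the class overlapped between them. H1-5 had 4 reads over the 8 HEK293T libraries. H3C8 (769 CPM in H9), H2BC10 (635 CPM) and H4C9 (480.1 CPM) had 4, 6 and 11 there. How common such a gap was among all genes was not counted. These are uniquely placed reads, and the part that reads with several alignments play was not tested. Cell line, arsenite, siRNA and immunoprecipitation cannot be told apart in these values. VIM, an intermediate filament of mesenchymal and of cultured cells, was at 1004, 1012, 964 and 987 CPM in H9, and the epithelial keratins KRT8 and KRT18 at 229 and 180.1 CPM on average, with 52 and 68 named pseudogenes.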
